A study of Homo sapiens with 40 samples.

Results

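The pellet extract (PE) of human embryonic stem cells on day 3 of mesoderm differentiation was set against the soluble nuclear extract (SNE) of the same day. The comparison used 4 of the 40 libraries in the series, namely 2 of PE and 2 of SNE, all of total RNA. Of the 57939 genes in the table, 13203 had a mean of 5 TPM or more over these 4 libraries, and all 13203 were tested. The unit, TPM, scales the reads of a gene by its length and by the library total, so it gives a share of a library and no amount per cell.

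Both groups came from wild-type cells of H1, an established line of human embryonic stem cells. They had been moved from stem cell medium on Matrigel to a serum medium with ascorbic acid and BMP4, a signal that drives mesoderm, and then to the same medium with bFGF, a fibroblast growth factor. A fractionation kit took the cells apart with buffers in a fixed order. Cytoplasmic (CE) and membrane (ME) extracts came off first, the nuclear buffer then released SNE, the same buffer with micrococcal nuclease released the chromatin-bound extract (CBNE), and a last buffer brought PE, also named cytoskeletal extract in the protocol, into solution. PE is therefore what had stayed insoluble through a nuclease step that SNE never met. Unfractionated RNA (INPUT) and days 0 and 5 make up the other total RNA groups. The labels do not say whether replicates were separate cultures, so p-values here measure the spread between libraries, which may be technical. In a bulk extract, fewer cells that hold an RNA and less of it per cell cannot be told apart.

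The RNAs that set these extracts apart belong to known nuclear and cytoplasmic structures. The nucleolus transcribes 45S precursor RNA from ribosomal DNA and processes it with small nucleolar RNAs (snoRNAs), of which U3 is the abundant one that acts on the precursor. 7SL is the RNA of the signal recognition particle, which brings ribosomes that make secreted proteins to the endoplasmic reticulum. Long noncoding RNAs such as MALAT1 and NEAT1 stay in the nucleus at speckles and paraspeckles, and an insoluble pellet after salt and detergent holds cytoskeleton, nuclear lamina and matrix.

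The fraction labels were checked on RNAs of known place. MALAT1 stood at 7505 and 7355 TPM in the PE libraries, against 15124 and 14416 TPM in the SNE libraries, and at 2616 and 2609 TPM in day 3 CE. NEAT1 stood at 701 and 695 TPM in the PE libraries, against 1057 and 1021 TPM in the SNE libraries, and at 60.7 and 73.9 TPM in CE. Both nuclear RNAs were thus above CE in both extracts, with SNE values above PE values. The mRNA of GAPDH, a glycolytic enzyme used as a cytoplasmic mark, stood at 1946 and 1696 TPM in the PE libraries, against 1459 and 1467 TPM in the SNE libraries, and at 8057 and 7426 TPM in CE. Over 12 primitive streak and mesoderm markers, summed TPM was 347 to 363 in PE, 329 to 344 in SNE and 493 to 511 in INPUT. Over 6 pluripotency markers it was 1146 to 1236 in PE, 1680 to 1695 in SNE and 1793 to 1822 in INPUT, with SOX2 listed at 0 in all of these libraries. BMP4 and MSX2 made up most of the mesoderm sum, at 266 and 282 TPM and at 128 and 141 TPM in INPUT, while TBXT, the brachyury gene, was at 6.19 and 4.17 TPM there and PDGFRA, FOXF1 and GATA4 were each under 1 TPM. LIN28A and DPPA4 made up most of the pluripotency sum. The short marker sets of the lineages that the protocol does not aim at summed to less, at 116 to 122 TPM in PE, 133 to 139 TPM in SNE and 91.5 to 97.2 TPM in INPUT for amnion and trophoblast, and under 45 TPM in each of these libraries for neuroectoderm, endoderm and endothelium. In INPUT the amnion markers TFAP2A, at 54.5 and 58.6 TPM, and GATA3, at 29.8 and 32.5 TPM, were above TBXT, while CDX2, ISL1, GABRP and VTCN1 were below it. The sets differ in size, so the sums do not rank the lineages. The longer neuroectoderm list summed to 2647 and 2359.6 TPM in PE and 1639 and 1638 TPM in SNE, most of it NES, which encodes the filament nestin, at 2424 and 2158 TPM in PE, against 1496 and 1490.4 TPM in SNE. The longer endoderm and endothelial list summed to 79.0 and 77.5 TPM in PE and 105 TPM in both SNE libraries.

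Depth differed between the groups. On a transcript of 1 kb, 1 read was worth an estimated 6.60 and 7.25 TPM in the PE libraries, against 1.47 and 1.32 TPM in the SNE libraries. The table holds no read numbers, so these are estimates from the commonest length-scaled TPM value of genes with a single annotated transcript. Replicates correlated at r = 0.814 (Pearson, across genes on the log2 scale) in PE and at 0.958 in SNE. Where a gene was at 0 in a group, the limit used was the TPM of 3 reads in each library, which covers counting error only.

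Under limma on log2(TPM + 1), 1262 genes were called higher in PE (9.56% of those tested) and 1571 were called lower (11.9%). A call needed a log2 fold change of 1 or more in size and a p under 0.05 after Benjamini-Hochberg adjustment. All fold changes below are PE minus SNE on that scale, with the standard error after ±, from 2 libraries of each group, and the scale understates changes of low genes. The PE and SNE libraries did not overlap in 84.1% of all tested genes, so lack of overlap by itself marks little here. The median gene lay at -0.40, and gene lists are read against that value. Of the genes called lower, 155 were at 0 in both PE libraries, and in 3 of these the SNE libraries lay above the PE limit of 3 reads, so 1416 lower calls rest on genes seen in PE. The split depended on scale: with each library shifted to a common median, 1615 genes were called higher and 770 lower, and with quantile normalisation 1528 and 929. Without SNE replicate 1 the counts were 825 and 611, and without SNE replicate 2 they were 821 and 614. Values of the 135 genes named by rule that passed the test had adjusted p from 0.00113 to 0.034.

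**Figure D1:**
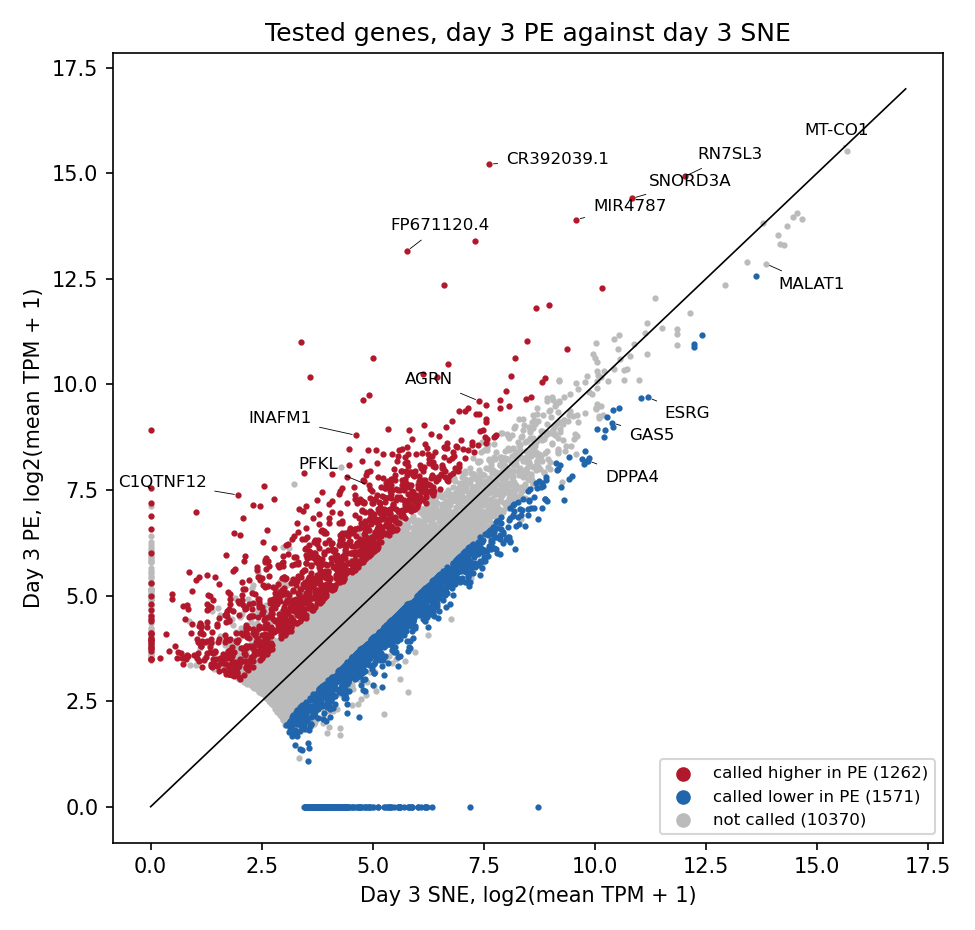
Mean level of each of the 13203 tested genes in day 3 PE (vertical axis) and day 3 SNE (horizontal axis), log2(mean TPM + 1), with the line of equal level. The genes called higher in PE (1262) hold a small group far above the line, among them CR392039.1, FP671120.4, MIR4787 and SNORD3A, and the genes called lower (1571) lie in a band below it, with a line of points at 0 in PE.

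Large PE excesses were seen in RNA from ribosomal DNA, in U3 and 7SL, and in a few precursor genes of microRNAs. The sequences of 4 such microRNA genes are shown first, to set the letters of MIR4787, the most abundant of the 4 in PE, beside those of the others. They are credited to RefSeq on GRCh38.p14, and the hairpins of MIR4787, MIR3187, MIR27A and MIR23A hold 79.8%, 70.0%, 60.3% and 57.5% GC. In the hairpin of MIR4787 (chr3:50675080-50675163, plus strand), capitals mark both mature arms:
MIR4787 hairpin: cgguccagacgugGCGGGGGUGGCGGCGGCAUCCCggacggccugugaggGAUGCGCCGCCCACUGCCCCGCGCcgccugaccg
In the mature arms of MIR4787, MIR3187 (chr19:813584-813653, plus strand), MIR23A (chr19:13836587-13836659, minus strand) and MIR27A (chr19:13836440-13836517, minus strand), capitals mark the seed, bases 2 to 8:
hsa-miR-4787-5p: gCGGGGGUggcggcggcauccc
hsa-miR-4787-3p: gAUGCGCCgcccacugccccgcgc
hsa-miR-3187-5p: cCUGGGCAgcguguggcugaagg
hsa-miR-3187-3p: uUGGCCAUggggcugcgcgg
hsa-miR-23a-5p: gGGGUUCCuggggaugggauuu
hsa-miR-23a-3p: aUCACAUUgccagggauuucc
hsa-miR-27a-5p: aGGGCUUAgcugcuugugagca
hsa-miR-27a-3p: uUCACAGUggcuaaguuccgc
No pair of these 8 arms shares a seed. The table counts reads on the precursor genes, so the values below speak of precursor or primary transcripts and not of mature microRNAs.

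RNA from ribosomal DNA units was far above SNE. FP671120.4, a noncoding gene within a 45S unit on chromosome 21 (chr21:8197620-8227646), stood at 8018 and 10233 TPM in the PE libraries, against 63.7 and 43.2 TPM in the SNE libraries, a log2 fold change of 7.40 ± 0.25 (adjusted p = 0.00137). FP236383.3, in a second unit (chr21:8380665-8410645), stood at 10002 and 11688 TPM in the PE libraries, against 168 and 146 TPM in the SNE libraries, a fold change of 6.10 ± 0.12. RNA5-8SN1, a gene of 5.8S ribosomal RNA (chr21:8439823-8439975), had 345 and 616 TPM in the PE libraries, against 0 and 0 TPM in the SNE libraries. The lower PE library of RNA5-8SN1 was 12 times the limit of 3 reads in an SNE library. Its PE values rest on an estimated 8 and 13 reads, whose counting error that ratio leaves out. All 3 tested genes of the 45S list were called higher, and each PE library was above each SNE library. Copies of these units are near identical, so the authors' counting could have split reads among them. The CBNE libraries were at 14979 and 11353 TPM for FP671120.4, 16303 and 12766 TPM for FP236383.3 and 109.9 and 0 TPM for RNA5-8SN1. The first pair was thus high in both extracts that follow the soluble nuclear step, and the table does not tell precursor from mature sequence.

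A pair of short genes annotated as microRNAs lies farther along chromosome 21. CR392039.1 (chr21:8987370-8987430) stood at 26308 and 49947 TPM in the PE libraries, against 241 and 151 TPM in the SNE libraries, a fold change of 7.56 ± 0.44. MIR3648-2 (chr21:8986999-8987178) stood at 4183 and 6287 TPM in the PE libraries, against 8.18 and 183 TPM in the SNE libraries, and its SNE replicate 1 held an estimated 1 read. The SNE libraries of MIR3648-2 differed from each other more than the PE libraries did. These genes and the 4 shown above were chosen for naming after their values were seen, except CR392039.1 and MIR4787, which are among the 10 most abundant genes of PE.

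On chromosome 3, MIR4787 stood at 15567 and 15113 TPM in the PE libraries, against 824 and 707 TPM in the SNE libraries, a fold change of 4.33 ± 0.096 (adjusted p = 0.00113). It held an estimated 198 and 175 reads in PE, against 47 and 45 in SNE, and overlaps no other annotated gene. In CBNE it was at 88503 and 81905 TPM. MIR4787 was likewise high in PE and CBNE and low in SNE.

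MIR23A and MIR27A are neighbours in the miR-23a cluster, inside the noncoding gene AC020916.1. MIR23A stood at 724 and 994 TPM in the PE libraries, against 40.4 and 18.1 TPM in the SNE libraries, and MIR27A stood at 931 and 651 TPM in the PE libraries, against 18.9 and 33.8 TPM in the SNE libraries. Each had 1 or 2 estimated reads in each SNE library, under the limit of 3, so no fold is given. MIR3187, on the strand opposite to PLPPR3, stood at 2453 and 1658 TPM in the PE libraries, against 0 and 18.9 TPM in the SNE libraries, with 26 and 16 estimated reads in PE, against 0 and 1 in SNE. Reads of a host gene or of an overlapping gene cannot be told apart from those of the precursor here. Of 92 tested microRNA genes, 12 were called higher and 20 lower, and 19 of those 20 were at 0 in both PE libraries, so the excess was carried by few members and the lower calls were limited by depth.

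U3, the snoRNA that acts on the 45S precursor, followed the same direction. SNORD3A, its most abundant gene here (chr17:19188016-19188714), stood at 19557 and 23818 TPM in the PE libraries, against 1989 and 1658 TPM in the SNE libraries, a fold change of 3.57 ± 0.15 (adjusted p = 0.00157). The other copies called were SNORD3B-1 at 6.56, SNORD3C at 5.59 and SNORD3B-2 at 4.11. Of 5 tested members of the U3, U8 and U13 list, 4 were called higher and 0 lower, with a median of 4.11. The copies are near identical, so their single values are uncertain, while all 4 moved one way.

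7SL, the signal recognition particle RNA, was also higher in PE. RN7SL3 stood at 31120.5 and 31467 TPM in the PE libraries, against 4715 and 3681 TPM in the SNE libraries, a fold change of 2.91 ± 0.14. RN7SL5P was at 2.91 and RN7SL4P at 2.15. These 3 were the members called among 5 tested RNAs of RNA polymerase III, and 0 were called lower. In CBNE RN7SL3 reached 55128 and 53968 TPM, and in CE 10818 and 9097 TPM. RN7SL5P and RN7SL4P are annotated copies of 7SL, and reads may be shared with RN7SL3.

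Small nuclear RNAs of the spliceosome had no higher call. Of 67 tested, limma called 0 higher, with 1 higher at an unadjusted p under 0.05, and 20 lower, with a median of -2.22. In 19 of those 20, both PE libraries were at 0, and in none of the 19 did the SNE libraries exceed the PE limit of 3 reads. With such members put at that limit, the median of the list was 0, so a lower level of snRNAs in PE was not detectable at this depth.

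By class, the summed shares of misc_RNA, microRNA genes, snoRNA and 45S genes were larger in PE than in SNE, while that of snRNA was 0.287% and 0.189% in PE, against 0.317% and 0.302% in SNE. The misc_RNA class, which holds 7SL and Y RNA, took 4.19% and 4.13% of summed TPM in the PE libraries, against 0.814% and 0.740% in the SNE libraries. MicroRNA genes took 5.68% and 8.10% in PE, against 0.636% and 0.615% in SNE, and snoRNA took 2.35% and 2.95% in PE, against 0.312% and 0.264% in SNE. Most of the microRNA share in PE came from CR392039.1 and MIR4787. CR392039.1, grouped above with ribosomal DNA loci, was counted with the microRNA genes and not with the 45S genes. Nearly all of the snoRNA level in PE was U3, and of 62 tested misc_RNA genes 6 were called higher and 18 lower, all 18 at 0 in PE. Genes of 45S units took 1.84% and 2.26% in PE, against 0.0232% and 0.0190% in SNE. In all 4 classes both PE libraries lay above both SNE libraries and below both CBNE libraries. Mitochondrial-encoded RNA took 20.6% and 18.8% in PE, against 28.8% and 28.9% in SNE. Long noncoding RNA outside the 45S units took 5.70% and 5.65% in PE, against 7.75% and 7.73% in SNE. Protein-coding RNA took 54.6% and 53.3% in PE, against 57.0% and 56.9% in SNE. With 2 libraries against 2, an exact permutation test allows no two-sided p below 0.333, so the shares carry no test.

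**Figure D2:**
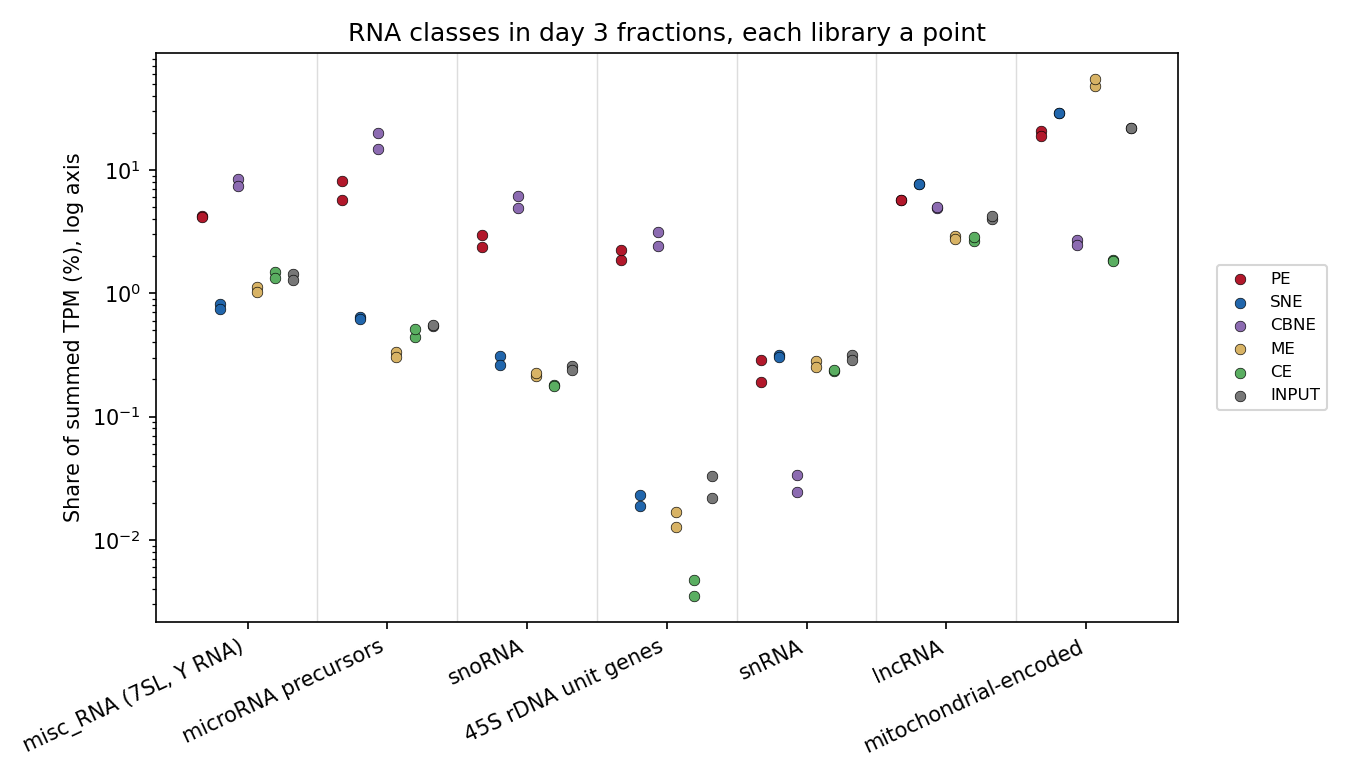
Share of summed TPM of 7 RNA classes in each day 3 library (points, log axis), for PE, SNE, CBNE, ME, CE and INPUT. PE lies above SNE for misc_RNA, microRNA precursors, snoRNA and 45S genes and below it for lncRNA and mitochondrial-encoded RNA, while the snRNA points are at 0.189% to 0.287% in PE and 0.302% to 0.317% in SNE.

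Protein-coding genes called higher had transcripts rich in G and C and spanned less of the genome in the median, though MEGF6 spans 122 kb. INAFM1, a gene of a small membrane protein family (chr19:47274453-47275707), stood at 458 and 428 TPM in the PE libraries, against 22.3 and 25.2 TPM in the SNE libraries, a fold change of 4.16 ± 0.084 (adjusted p = 0.00113). C1QTNF12, which encodes a secreted protein of the C1q and TNF family, stood at 151 and 179.8 TPM in the PE libraries, against 3.10 and 2.78 TPM in the SNE libraries, a fold change of 5.40 ± 0.12. MEGF6, a protein with EGF-like repeats, stood at 94.2 and 91.4 TPM in the PE libraries, against 5.34 and 5.04 TPM in the SNE libraries, a fold change of 3.92 ± 0.059. In each of these genes both PE libraries were at least 10 times above both SNE libraries, and the PE replicates lay close together. With the GC trend of each library removed, a setting described further on, the fold changes were 1.59, 2.82 and 1.34, all still called higher.

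RHBDL1, a rhomboid-family protein, stood at 159.8 and 150.5 TPM in PE, against 6.23 and 5.58 TPM in SNE. ANTKMT, a methyltransferase that acts on the mitochondrial adenine nucleotide carrier, stood at 317 and 388 TPM in PE, against 18.2 and 24.2 TPM in SNE, and overlaps CCDC78. BRSK2, a kinase related to AMPK, stood at 74.8 and 76.7 TPM in PE, against 4.94 and 4.61 TPM in SNE. MMP23B, a matrix metalloproteinase gene with a near-identical copy and an overlap with CDK11B, had a fold change of 4.86, or 2.28 with that trend removed, and is uncertain for that reason. PRR35 and TMEM88B were also among the 12 highest, but their SNE levels were worth under 3 reads, so no fold is given for them. PFKL, the liver form of phosphofructokinase and the single called member of 15 tested glycolytic genes, stood at 194 and 195 TPM in the PE libraries, against 29.1 and 29.1 TPM in the SNE libraries, a fold change of 2.70 ± 0.038. PFKL reached 289 and 260.4 TPM in CBNE and 43 and 42.6 TPM in INPUT.

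Across all tested protein-coding genes, the fold change followed the GC content of the transcript, a property examined after the data had been seen. In 1800 genes with under 40% GC the median was -0.77, with 0 called higher and 462 lower. The median was -0.69 from 40% to 45% (4 higher and 427 lower of 2281), -0.50 from 45% to 50% (13 and 171 of 1745) and -0.26 from 50% to 55% (39 and 83 of 1542). It was 0.16 from 55% to 60% (147 higher and 17 lower of 1468), 0.78 from 60% to 65% (449 and 4 of 1201) and 1.69 at 65% or more (317 and 0 of 422). For comparison, 9.26% of the 10459 protein-coding genes were called higher and 11.1% lower. Spearman's rho across these genes was 0.71, and 0.695 to 0.702 in each of the 4 pairings of a PE with an SNE library. Genes are not independent replicates, and the rho describes these libraries.

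**Figure D3:**
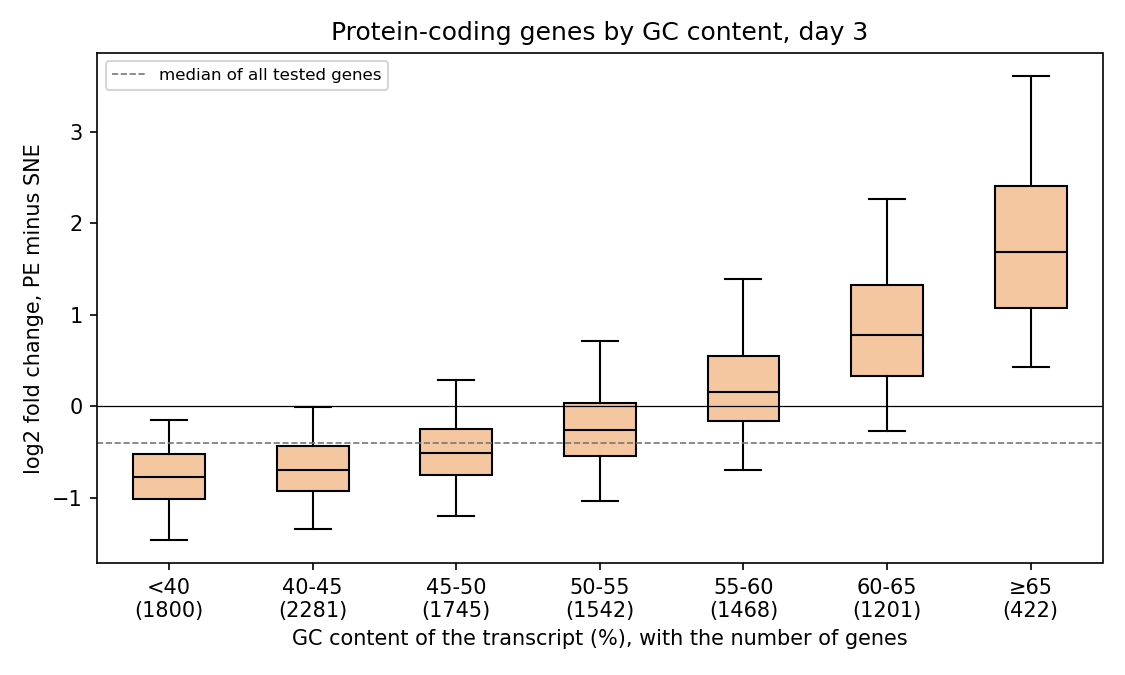
Log2 fold change, PE minus SNE, of tested protein-coding genes in bins of transcript GC content (box: quartiles and median, whiskers: 5th to 95th percentile). The medians run from -0.77 under 40% GC to 1.69 at 65% or more, and the dashed line is the median of all tested genes (-0.40).

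Long noncoding RNAs showed the same order. At 65% GC or more, 45 of 59 were called higher and 1 lower (median 2.46), and under 40% GC 7 of 295 were called higher and 68 lower (median -0.82). The extracts leaned opposite ways: the level of a protein-coding gene correlated with its GC content at rho = 0.190 and 0.208 in the PE libraries and at -0.200 in both SNE libraries. Other fractions minus SNE on day 3 gave rho of 0.56 for CBNE, 0.42 for ME, 0.40 for CE and 0.41 for INPUT, on controls shared with the PE contrast. At 60% GC or more the median was 0.98 for PE minus SNE and 1.51 for CBNE minus SNE, and -0.49, 0.03 and -0.11 for ME, CE and INPUT minus SNE.

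Gene span moved with GC content and less with the fold change once GC was held. Protein-coding genes called higher had a median GC of 63.5% and spanned a median of 13.6 kb, against 41.1% and 32.8 kb for those called lower and 47.9% and 37.4 kb for those not called. Within genes of 50% to 55% GC, the median fold change lay between -0.29 and -0.05 in all 5 classes of span. The gene-rich chromosome 19 had a median of 0.33 and chromosome 22 of 0.23, against -0.67 on chromosome 13 and -0.64 on chromosome 4, where the median GC was also lower. With the GC trend removed these 4 chromosomes lay close together, at -0.30, -0.20, -0.26 and -0.28 in that order. When the GC trend of each library was removed, 403 genes were called higher (3.05%) and 1008 lower (7.63%), of which 350 and 571 were among those called above. PFKL was at 1.15 under that setting and remained called.

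Promoter windows of 3 genes are given because they show how far the start of the gene follows the transcript. The windows run from 250 bases before to 50 after the gene start of RefSeq on GRCh38.p14, with CG pairs in capitals. The RefSeq start need not be the GENCODE start of the table, and for HNRNPH3 the window lies wholly downstream of the GENCODE start at 68331174. INAFM1 (chr19:47274173-47274472, plus strand) was called higher, while HNRNPH3 (chr10:68331443-68331742, plus strand) and DPPA4 (chr3:109337497-109337796, minus strand) were called lower.
INAFM1: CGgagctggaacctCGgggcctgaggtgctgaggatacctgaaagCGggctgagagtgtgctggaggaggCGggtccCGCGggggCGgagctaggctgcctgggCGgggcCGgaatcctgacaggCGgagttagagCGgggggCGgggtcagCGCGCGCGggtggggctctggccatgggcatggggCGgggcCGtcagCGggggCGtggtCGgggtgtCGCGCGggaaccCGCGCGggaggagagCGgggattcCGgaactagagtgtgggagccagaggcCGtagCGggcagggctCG
HNRNPH3: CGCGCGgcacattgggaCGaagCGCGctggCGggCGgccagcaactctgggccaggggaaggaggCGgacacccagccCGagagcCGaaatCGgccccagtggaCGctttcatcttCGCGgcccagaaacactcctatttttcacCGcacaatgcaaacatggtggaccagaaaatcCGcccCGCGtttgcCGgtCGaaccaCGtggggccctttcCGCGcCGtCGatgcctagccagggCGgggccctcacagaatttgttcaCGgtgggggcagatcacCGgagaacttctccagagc
DPPA4: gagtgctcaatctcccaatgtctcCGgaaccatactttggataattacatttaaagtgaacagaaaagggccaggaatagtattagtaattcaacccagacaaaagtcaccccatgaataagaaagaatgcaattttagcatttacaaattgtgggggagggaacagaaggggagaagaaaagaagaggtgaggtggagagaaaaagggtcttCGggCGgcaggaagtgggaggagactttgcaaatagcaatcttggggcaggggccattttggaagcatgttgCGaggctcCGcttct
The windows held 32, 29 and 5 CG pairs, in that order, at 73.7%, 64.0% and 45.3% GC. Windows with 20 or more CG pairs made up 80.8% of 738 for genes called higher, 71.9% of 963 for genes called lower and 74.6% of 8463 for all tested protein-coding genes, against 41.2% of all 27305 windows. A dense CG window was thus common in both directions. Genes called higher had a median of 33 CG pairs and 72% GC in the window, against 25 pairs and 63% for those called lower. The window thus followed the call, while transcript GC differed more, at medians of 63.5% and 41.1%.

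Genes of the cytoskeleton, after which the pellet extract is also named, were mostly not called. In the list of actin, intermediate filament and contractile genes, 2 of 39 were called higher and 0 lower, and their median of 0.01 was 0.41 above that of all genes. TPM2, a tropomyosin that lines actin filaments, stood at 578 and 584 TPM in the PE libraries, against 178 and 193 TPM in the SNE libraries, a fold change of 1.64 ± 0.058. ACTN4, an actinin that crosslinks actin, stood at 79.9 and 69.2 TPM in PE, against 27.7 and 26.8 TPM in SNE, a fold change of 1.42 ± 0.09, and was no longer called once the GC trend was removed. Keratin KRT18 was at -0.07, vimentin (VIM) at 0.42 and ACTB at 0.66, all uncalled. Of 17 tubulin and microtubule genes limma called 0 in either direction, and 2 were higher and 8 lower at an unadjusted p under 0.05, all by less than 1.

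Large linker proteins gave 2 higher and 0 lower calls among 28, with a median of -0.34. PLEC, the linker plectin, stood at 782 and 793 TPM in the PE libraries, against 234 and 231 TPM in the SNE libraries, a fold change of 1.75 ± 0.038. FLNA and FLNC, the filamins, were at 0.08 and 0.07 and uncalled. With the GC trend removed PLEC moved to -0.32, uncalled, and FLNA and FLNC moved to -1.09 and -1.10, both called lower, so these 3 changed sign.

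Extracellular matrix genes divided. Of 29, 5 were called higher and 2 lower, with a median of -0.38. AGRN, the basement membrane proteoglycan agrin, stood at 766 and 789.6 TPM in the PE libraries, against 171 and 165 TPM in the SNE libraries, a fold change of 2.20 ± 0.044 (adjusted p = 0.00113). LAMA5, a laminin chain of basement membranes, stood at 723 and 749 TPM in PE, against 188 and 183 TPM in SNE, and COL18A1, a basement membrane collagen, stood at 622 and 643 TPM in PE, against 162 and 158 TPM in SNE. COL5A1, a fibrillar collagen, had a fold change of 1.14 ± 0.041. The first 3 have transcripts of over 65% GC, and with the GC trend removed they lay at -0.38, -0.10 and -0.10, all uncalled.

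Immediate early genes, which cells induce within minutes of a stimulus, lay on the PE side of the median gene. Of 20, 5 were called higher and 0 lower, with a median of 0.19, 0.59 above the median gene. The median GC of the list was 55.2%. All tested protein-coding genes of 55% to 60% GC had a median of 0.16, with 10% called higher. With the GC trend removed the list median was -0.11, against -0.29 over all tested genes. FOSL1, an AP-1 subunit, stood at 215 and 205 TPM in the PE libraries, against 42 and 37.2 TPM in the SNE libraries, a fold change of 2.38 ± 0.081. JUND, another AP-1 subunit, stood at 1049 and 1320.0 TPM in the PE libraries, against 285 and 264 TPM in the SNE libraries, a fold change of 2.10 ± 0.14. ZFP36, which speeds decay of mRNAs with AU-rich elements, was called at 1.61, and EGR3, a zinc finger factor, at 1.22 on an estimated 5.16 and 6.02 reads in PE. With the GC trend removed FOSL1, ZFP36 and EGR3 were still called higher, and JUND moved to -0.48. The YAP targets CCN1 and CCN2 were at -0.46 and 0.29 and uncalled.

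Among lineage genes, 4 of 24 primitive streak and mesoderm genes were called higher and 0 lower, namely ID3, MIXL1, MSX1 and ID4. Of all tested genes, 9.56% were called higher and 11.9% lower. ID4, an inhibitor of basic helix-loop-helix factors, stood at 1089 and 1189.6 TPM in the PE libraries, against 487 and 448 TPM in the SNE libraries, a fold change of 1.28 ± 0.076. ID3, of the same family, stood at 137 and 197 TPM in the PE libraries, against 34.5 and 12 TPM in the SNE libraries, and its SNE libraries differed from each other by a larger factor than its PE libraries did. MIXL1, a homeobox factor of the primitive streak, stood at 21.1 and 14.8 TPM in PE, against 4.29 and 5.76 TPM in SNE, and MSX1 at 15.5 and 10.2 TPM in PE, against 4.14 and 3.71 TPM in SNE, on under 10 estimated reads in each library. MIXL1 and ID4 were still called with the GC trend removed, and ID3 and MSX1 were not. HAND1, a mesoderm factor, stood at 24.1 and 8.81 TPM in PE, against 15.2 and 18.8 TPM in SNE, and overlapped between the groups.

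Pluripotency genes gave 2 higher and 1 lower calls among 24. DPPA4, a stem cell factor that binds chromatin, stood at 307 and 276 TPM in the PE libraries, against 927 and 921 TPM in the SNE libraries, a fold change of -1.66 ± 0.07 (adjusted p = 0.00155). It was the list's lower call, and SNE was also above INPUT, at 448 and 454 TPM. TERT, the telomerase protein subunit, stood at 35.6 and 42 TPM in the PE libraries, against 10.5 and 9.79 TPM in the SNE libraries, a fold change of 1.83 ± 0.11, and was not called with the GC trend removed. UTF1, a chromatin factor of stem cells, was the other higher call, at 46.3 and 28.2 TPM in PE, against 2.29 and 7.19 TPM in SNE, on an estimated 8.1 and 4.5 reads in PE, against 1.80 and 6.30 in SNE, and it lay at 0.26, uncalled, with the trend removed. POU5F1, which encodes OCT4, was at 0.18 and LIN28A, a binder of let-7 precursors, at 0.39, both uncalled. The amnion and trophoblast list (6 tested), the neuroectoderm list (3) and the endoderm and endothelial list (4) held 0 calls of limma in either direction. At an unadjusted p under 0.05, 4 members of these lists were higher and 4 lower, all by less than 1.

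Nuclear long noncoding RNAs lay a little to the SNE side of the median gene. Of 11 tested, 0 were called higher and 4 lower, with a median of -0.57, 0.17 below that of all genes. The median GC of the list was 43.1%. Of all tested lncRNAs with 40% to 45% GC, 20.7% were called lower, with a median of -0.75. TUG1 stood at 271 and 289 TPM in the PE libraries, against 552 and 569.6 TPM in the SNE libraries, a fold change of -1.0 ± 0.054. FTX and JPX, genes of the X-inactivation centre, were at -1.31 ± 0.056 and -1.27 ± 0.12, and MIAT at -1.23 ± 0.29. MALAT1, at -0.99 ± 0.053, and NEAT1, at -0.57 ± 0.042, missed the size needed for a call. With each library at a common median 2 of the 11 were called lower, and with the GC trend removed also 2.

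Hosts of snoRNAs, whose introns carry snoRNAs and whose spliced RNAs are often unstable, held the largest share of lower calls of the lists examined. Of 11, 7 were called lower and 1 higher, with a median of -1.06. GAS5 stood at 542 and 546 TPM in the PE libraries, against 1359.9 and 1328 TPM in the SNE libraries, a fold change of -1.30 ± 0.04, and SNHG1 at 521 and 495 TPM in PE, against 1359.8 and 1359 TPM in SNE, a fold change of -1.42 ± 0.047. ZFAS1 stood at 202 and 179 TPM in the PE libraries, against 602 and 598 TPM in the SNE libraries, a fold change of -1.65 ± 0.076, or -2.17 with the GC trend removed. SNHG7 was the higher call at 1.57 ± 0.077, has 65.9% GC, and moved to -0.51 with the trend removed. Under that setting 4 members were called lower and 0 higher, and 4 were called lower at a common median.

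Stem cell long noncoding RNAs showed 3 lower calls and 0 higher among 8, with a median of -1.19. ESRG, an RNA abundant in human pluripotent cells, stood at 864 and 789 TPM in the PE libraries, against 2309.6 and 2396 TPM in the SNE libraries, a fold change of -1.51 ± 0.067. LINC00678 stood at 148 and 120.3 TPM in PE, against 369 and 387 TPM in SNE, and LINC01108 at 57 and 69.4 TPM in PE, against 211 and 232 TPM in SNE. All 3 remained called lower with the GC trend removed and at a common median. Cytoplasmic long noncoding RNAs gave 1 higher and 2 lower calls among 11. The higher call was LINC01578, also known as CHASERR, at 44.7 and 55.5 TPM in the PE libraries, against 6.24 and 6.52 TPM in the SNE libraries, a fold change of 2.78 ± 0.13 for a transcript of 40.3% GC that overlaps AC013394.1. Its levels go against the name of the list, at 226 and 204 TPM in CBNE and 8.44 and 9.73 TPM in CE. The lower calls were SNHG6 at -1.39 and SNHG8 at -1.01, while NORAD, a long RNA that binds PUMILIO proteins, was at 0.62 and uncalled.

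**Figure D4:**
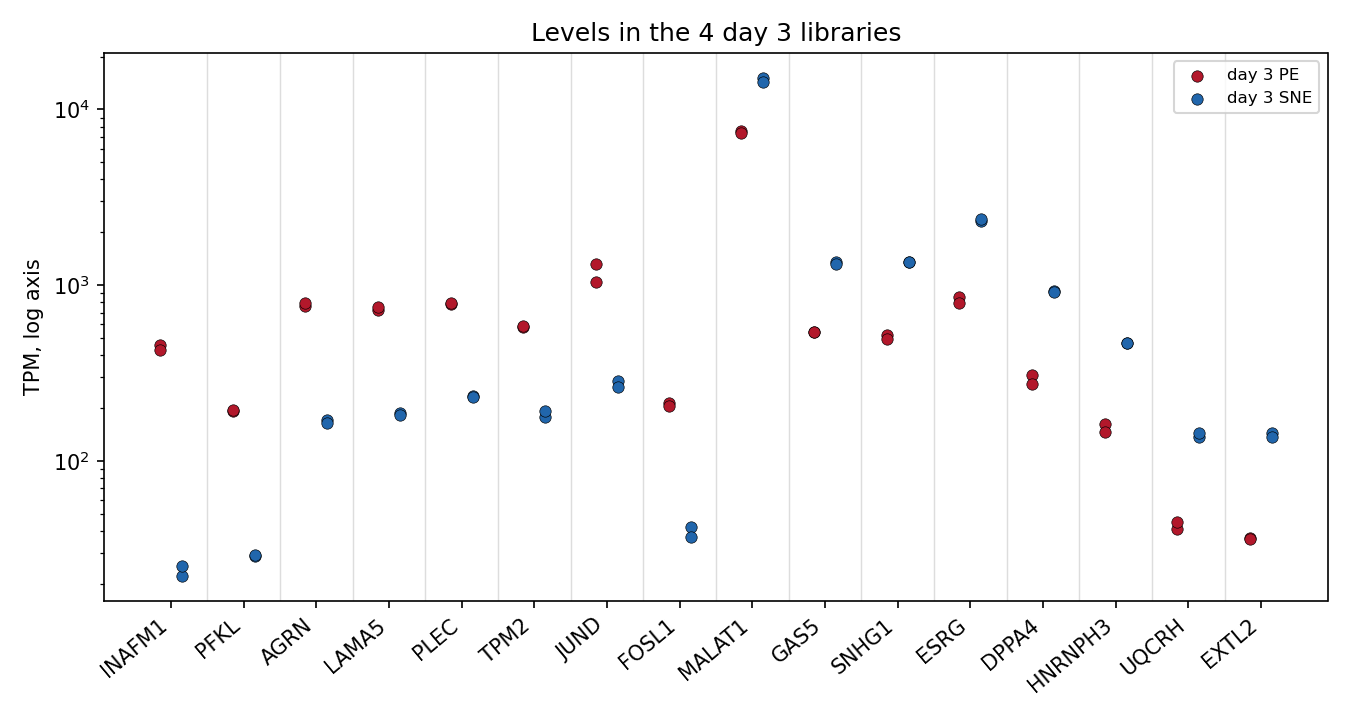
TPM (log axis) of 16 genes of the text in each day 3 library, PE on the left and SNE on the right of each gene. The first 8 genes lie higher in both PE libraries, the last 8 lie lower in both, and replicates sit closer to each other than the groups do.

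Messages of splicing regulators were on the SNE side. Of 39 SR protein, hnRNP and speckle genes, 0 were called higher and 14 lower, with a median of -0.90. HNRNPH3, a splicing factor of the hnRNP H family, stood at 162 and 147 TPM in the PE libraries, against 469 and 469.8 TPM in the SNE libraries, a fold change of -1.60 ± 0.066. NKTR, an SR-rich cyclophilin, stood at 103 and 95 TPM in PE, against 298 and 299.6 TPM in SNE, and SRSF11, an SR protein, at 120.5 and 111 TPM in PE, against 311 and 307 TPM in SNE. CLK1, a kinase of SR proteins, was at -1.40 ± 0.17 and HNRNPA2B1 at -1.09 ± 0.05. At a common median 6 of the 39 were called lower, and with the GC trend removed 3 were. The median GC of this list was 40.7%, against 47.9% over all tested genes, and SRRM2, a large speckle protein of 56.2% GC, was at -0.22 and uncalled.

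Messages of KRAB zinc finger proteins, which silence transposable elements through TRIM28, gave 0 higher and 9 lower calls among 38, with a median of -0.78. The median GC of the list was 38.8%. Of all tested protein-coding genes under 40% GC, 25.7% were called lower, with a median of -0.77, so the list lay near genes of like GC. ZNF528 stood at 36 and 30.0 TPM in the PE libraries, against 99.5 and 97.7 TPM in the SNE libraries, a fold change of -1.56 ± 0.11. ZNF90 was at -1.42, ZNF195 at -1.38 and ZNF117 at -1.30. The mRNA of TRIM28 itself was at 0.27 and uncalled, or at -1.28 with the GC trend removed. At a common median 4 of the 38 were called lower, and with the GC trend removed 2 were.

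Among mitochondrial-encoded mRNAs, 2 of 13 were called lower and 0 higher, with a median of -0.59. MT-ND3, a subunit of complex I, stood at 2233 and 2411 TPM in the PE libraries, against 5279 and 5603 TPM in the SNE libraries, a fold change of -1.23 ± 0.068, and MT-ND2, also of complex I, was at -1.06 ± 0.074. MT-CO1, of complex IV and the most abundant gene of both groups, stood at 48883 and 45031 TPM in the PE libraries, against 53202 and 50988 TPM in the SNE libraries, a fold change of -0.15 ± 0.071. MT-ND6, which is encoded on the light strand, was at 0.02 ± 0.099. With the GC trend removed or at a common median 0 of the 13 were called.

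Mitochondrial tRNA and rRNA genes held 8 lower calls and 0 higher among 22. All 8 were among the 20 tested tRNA genes. The 2 rRNA genes were uncalled and lay the other way, with a median of 1.67. MT-TL2 stood at 279 and 307 TPM in PE, against 975 and 836 TPM in SNE, and MT-TQ at 2293 and 1713 TPM in PE, against 4910.4 and 4692 TPM in SNE. MT-TG was at 0 in both PE libraries, with SNE at 325 and 524 TPM, and the lower SNE library was 1.02 times the PE limit of 3 reads. Genes of tRNA length give few reads in PE, so the tRNA part of the list is limited by depth.

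Nuclear-encoded respiratory chain genes gave 2 higher and 10 lower calls among 64, with a median of -0.52. UQCRH, a hinge subunit of complex III, stood at 41.2 and 45.2 TPM in the PE libraries, against 137 and 144 TPM in the SNE libraries, a fold change of -1.68 ± 0.07. NDUFB4, of complex I, stood at 29.9 and 31.6 TPM in PE, against 84.9 and 88 TPM in SNE. The higher calls were ATP5F1D, a subunit of ATP synthase, at 1.83 ± 0.19 and NDUFS7, of complex I, at 1.52 ± 0.12. Both have transcripts of over 60% GC, and neither was called with the GC trend removed, when 0 members were called higher and 7 lower.

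Cytosolic ribosomal protein mRNAs held few calls. Of 78, 3 were called higher and 1 lower, with a median of -0.05, 0.35 above the median gene. RPL13 was at 1.01 ± 0.038, RPS18 at 1.01 ± 0.065 and RPL36 at 1.01 ± 0.085, each near the size needed for a call. RPL39L was at -1.23 ± 0.17, on an estimated 3.11 and 2.07 reads in PE. Histone genes of the replication-dependent kind held 0 calls of limma in either direction among 55, with 6 higher and 7 lower at an unadjusted p under 0.05 and a median of -0.08. H1-4, a linker histone, stood at 1121 and 1414 TPM in PE, against 1014 and 1097 TPM in SNE. At a common median the median of ribosomal protein genes was 0.19 and that of histone genes 0.17, so their direction depends on scale, as it did for the tubulin, glycolytic, mesoderm and pluripotency lists. Of the 55 histone genes 8 were called lower and 0 higher with the GC trend removed, in a list with a median GC of 57.4%.

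Translation factors gave 1 higher and 4 lower calls among 36. EIF4A2, a helicase of initiation, stood at 449.7 and 417 TPM in the PE libraries, against 1219 and 1146 TPM in the SNE libraries, a fold change of -1.45 ± 0.065, EIF2S3 was at -1.31 and EIF2S1 at -1.08. EEF1D, an exchange factor of elongation, was at 1.24. Of the 36 genes 0 were called with the GC trend removed, and at a common median 1 was called higher and 2 lower. Genes of the endoplasmic reticulum gave 1 higher and 3 lower calls among 33. RRBP1, a ribosome-binding protein of the reticulum, stood at 341 and 313 TPM in the PE libraries, against 73.9 and 76 TPM in the SNE libraries, a fold change of 2.11 ± 0.062, and remained called at 1.55 with the GC trend removed. SRP9, a protein that binds 7SL, stood at 105 and 90.6 TPM in the PE libraries, against 261 and 264 TPM in the SNE libraries, a fold change of -1.42 ± 0.089, opposite to 7SL itself. SPCS2 and STT3B were the other lower calls, at -1.24 and -1.05. None of these 3 was called with the GC trend removed, when SRP9 lay at -0.89.

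Membrane receptor and transporter genes gave 1 higher and 2 lower calls among 41: NOTCH1 at 1.31, SLC7A11 at -1.03 and SLC38A2 at -1.02. None of these 3 was called with the GC trend removed, when 2 other members were called lower. Centrosome and spindle genes gave 0 higher and 5 lower among 33, with CCNB1, the mitotic cyclin, at 84.6 and 91 TPM in PE, against 194 and 197 TPM in SNE, and AURKA, BUB1 and ANLN at -1.14, -1.06 and -1.06. At a common median 0 of these 33 were called lower. Chromatin regulators gave 1 higher and 3 lower calls among 47, with SETD1A at 1.26 and EZH2, EED and ARID2 at -1.17, -1.09 and -1.09. With the GC trend removed 0 of the chromatin regulators and 2 of the centrosome list, both lower, were called. Over these lists the shares called were near or under those of all tested genes.

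**Figure D5:**
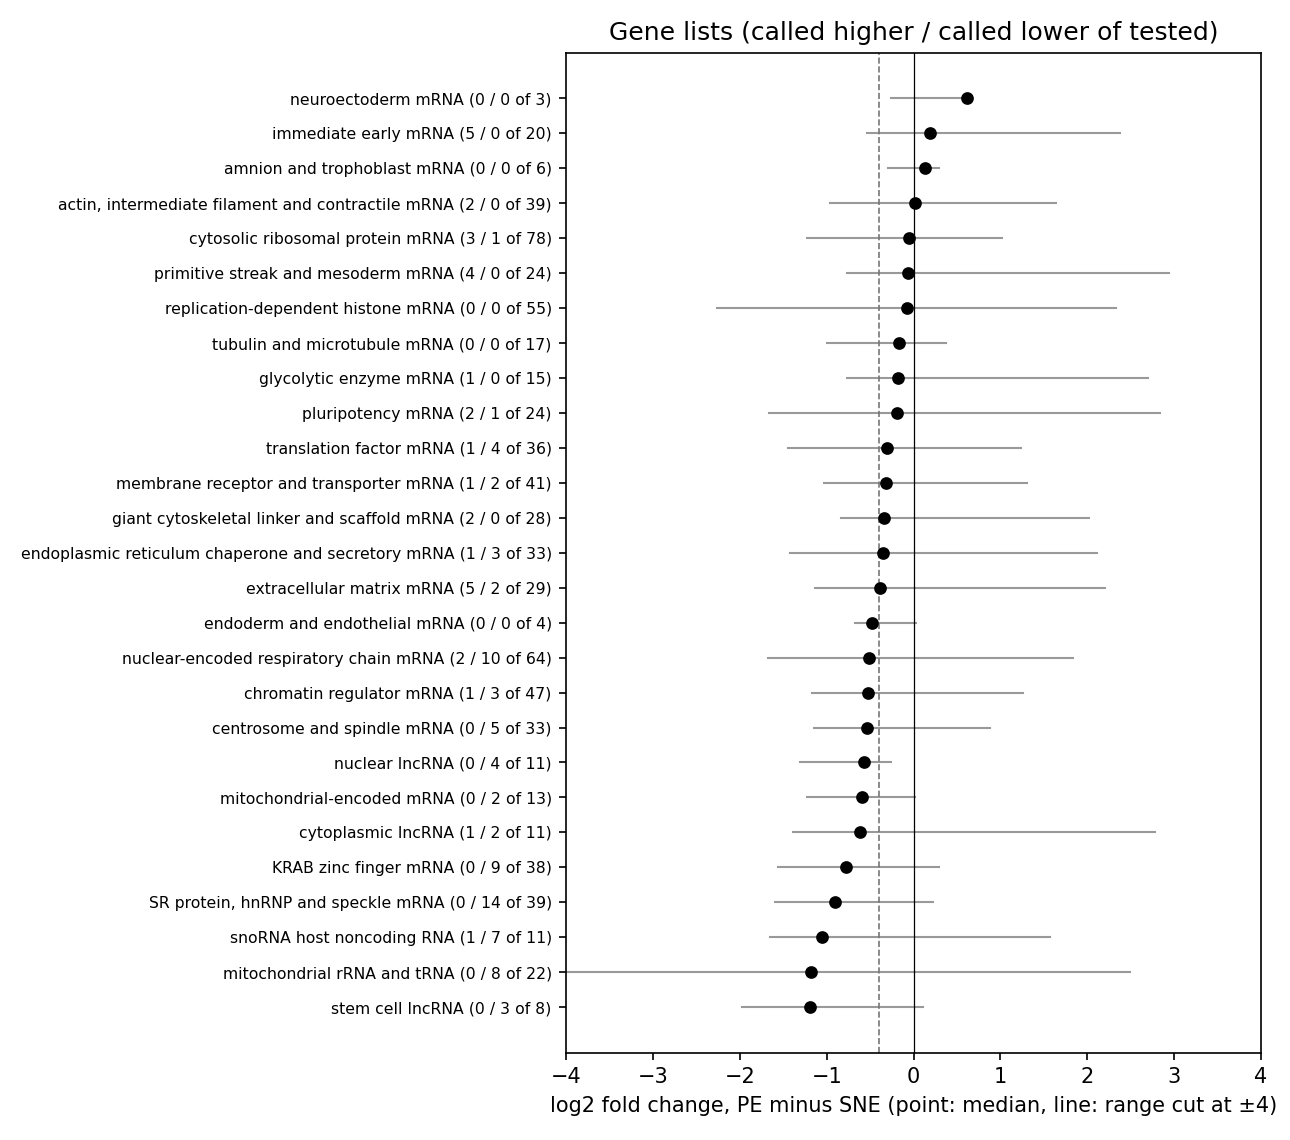
Median log2 fold change (points) and range (lines, cut at 4) of gene lists, PE minus SNE, with the number called higher and lower of those tested beside each name. The dashed line is the median gene at -0.40: stem cell lncRNA (-1.19), snoRNA hosts (-1.06) and splicing regulators (-0.90) lie below it and immediate early genes (0.19) above it.

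The genes with the largest lower calls at 30 TPM or more in SNE were of varied function. EXTL2, a glycosyltransferase, stood at 36.6 and 35.9 TPM in the PE libraries, against 145 and 138 TPM in the SNE libraries, a fold change of -1.94 ± 0.049 (adjusted p = 0.00113). FAM221A was at -2.39 ± 0.094, ACYP1, an acylphosphatase, at -2.10 ± 0.078, and CEPT1, which makes phosphatidylcholine and phosphatidylethanolamine, at -2.01 ± 0.083. In PE, FAM221A rests on an estimated 7.42 and 5.81 reads and ACYP1 on 3.51 and 2.83, so both folds are uncertain. MIR205HG, the noncoding host of miR-205, stood at 158 and 146 TPM in the PE libraries, against 635 and 637 TPM in the SNE libraries, a fold change of -2.06 ± 0.055. Several encode mitochondrial proteins, namely MPC1, the pyruvate carrier, at -2.04, REXO2, an oligoribonuclease, at -1.94, LETMD1 at -1.93 and COA5, an assembly factor of complex IV, at -1.92. JKAMP and PIGF, of the endoplasmic reticulum, were at -1.94 and -1.91. COA5 held an estimated 6.30 and 5.10 reads in PE, and JKAMP 7.26 and 4.98. All genes named in this paragraph remained called lower with the GC trend removed.

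The PE minus SNE difference was compared with that of days 0 and 5 in a fit on 12 libraries. Against day 5, 468 genes were called higher on day 3 (3.54%) and 201 lower (1.52%), and the median gene lay at -0.40 on day 3 and -0.51 on day 5. The 398 protein-coding genes called higher had a median GC of 63.3%, with a median difference of 1.77 on day 3 and 0.40 on day 5. Those called lower, 142 in number, spanned a median of 7.38 kb and lay at -0.12 on day 3 and 1.17 on day 5. Removal of the GC trend left 177 called higher, and with the replicate number as a block 87 were called higher and 32 lower. At a common median the counts were 264 and 380, so which direction held more calls depended on scale. Leaving out SNE replicate 1 of day 3 left 180 and 53, leaving out SNE replicate 2 left 192 and 61, and leaving out PE replicate 2 left 274 higher calls. Against day 0, 5762 genes were called higher (43.6%) and 127 lower (0.962%), with the day 0 median gene at -1.55. On day 0 a read on 1 kb was worth 25.4 and 30.8 TPM in PE, so many genes were at 0 there, and at a common median the counts were 558 and 1131. Depth moved with this contrast and its part was not tested.

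Genes called higher on day 3 kept their side on the other days in the median. Over days 0, 3 and 5 their median differences were 1.27, 1.70 and 0.75. That of genes called lower was -2.70, -1.25 and -1.27. The median of all tested genes itself lay at -1.55, -0.40 and -0.51, and the medians given here are not set relative to it. The relation to GC content gave rho of 0.67, 0.71 and 0.62. The 45S genes were at medians of 7.25, 7.40 and 4.83, U3 and its relatives at 6.90, 4.11 and 2.90, and splicing regulators at -1.98, -0.90 and -0.80 on the 3 days. Cytosolic ribosomal protein mRNAs were at -0.81, -0.05 and 0.93. They were thus above the median gene on all 3 days, and splicing regulators were below it. Of the 78 ribosomal protein genes, 29 were called lower on day 3 than on day 5, against 1.52% of all tested genes.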

How the data were processed

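The authors deposited 1 table of total RNA with a value per gene in 36 libraries, of which the 4 day 3 PE and SNE libraries were compared. The deposited values were read as TPM from the values themselves, since the columns add up to between 989513 and 998559 and the header names no unit. The tools listed, per the submitters' processing notes, are featureCounts 1.6.2, Salmon 1.3.0, GATK and HISAT2 2.0.5, with the build hg38. Which of them made the table, and whether counting used strand, is not given in the sources used here. In limma 3.58.1 (R 4.3.3), log2(TPM + 1) of genes at a mean of 5 TPM or more was fitted with an empirical Bayes variance trend, robust, with no covariate, and p-values were adjusted by Benjamini-Hochberg over all tested genes. A gene was called where the log2 fold change was 1 or more in size and the adjusted p under 0.05. Days were compared by the interaction term of a fit on the 12 PE and SNE libraries of days 0, 3 and 5. The fit on the 4 libraries was tested on simulated data, and the fit on 12 libraries was not.

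Genes were annotated with GENCODE 29, and the GC content was that of the longest transcript. Removing the GC trend meant subtracting the median log2 value in 60 bins of GC content within each library. This alternative, like the study of GC content, was chosen after seeing the data. The deposited table gives no read numbers. They were estimated by taking the commonest length-scaled TPM value among genes with a single annotated transcript as that of a single read. In the day 3 PE and SNE libraries, 38.9% to 49.9% of the values of such genes then came out as whole reads. Intervals or limits from these read numbers cover counting error only.

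The members and gene lists were chosen with earlier results of these data known, so a list is described by counts and a median. The genes named were, by rule, the 12 largest changes in each direction among protein-coding genes and lncRNA at 30 TPM or more, up to 4 called and 2 abundant members of each list, the 10 most abundant genes of each group and a few reference genes. Other genes named are said to be chosen after their values were seen. A few genes that the rule names are not reported here. Alternatives tried were other pseudocounts, filters, scalings, fits on more libraries, a replicate block and leaving out each library.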

Additional observations from a re-analysis of the deposited data

Results flagged for a closer look

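The results here are those whose PE minus SNE difference was called different between day 3 and another day by the interaction term of limma on 12 libraries. Against day 0 these were 5762 genes with a higher and 127 with a lower difference on day 3, and against day 5 they were 468 and 201. Among the named genes below, every value is the day 3 difference minus the day 5 difference, on the log2 scale.

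Several named genes with transcripts rich in G and C had a larger PE excess on day 3. C1QTNF12 differed by 2.86, RHBDL1 by 3.03, MMP23B by 2.18, MEGF6 by 2.17 and PRR35, which had under 3 reads in day 3 SNE, by 3.60. PFKL differed by 1.59 and NDUFS7 by 1.59. In the basement membrane genes LAMA5 and AGRN the values were 1.41 and 1.32, and in TERT 1.17. The immediate early genes ZFP36, FOSL1 and JUND were at 1.70, 1.66 and 1.01. ID4, whose transcript has 47% GC, was at 1.01.

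A few small RNA genes also differed, though 0 of 5 tested RNAs of RNA polymerase III and 1 of 5 in the U3, U8 and U13 list were called higher on day 3. MIR4787 stood at 958 and 1003 TPM in the day 5 PE libraries, against 533 and 475 TPM in the day 5 SNE libraries, and its difference was 3.37 larger on day 3. CR392039.1 was at 3.35 and SNORD3B-2 at 1.20. RNA5-8SN1 was at 8.61, a value that rests on SNE libraries at 0 and is no bound.

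Of 36 translation factors 3, and of 33 reticulum genes 2, had a PE excess called larger on day 5. RRBP1 stood at 1593 and 833 TPM in the day 5 PE libraries, against 82.3 and 78.7 TPM in the day 5 SNE libraries, and its difference was -1.71 ± 0.37 on day 3 relative to day 5. EEF1A1, an elongation factor, stood at 9735 and 8191 TPM in the day 5 PE libraries, against 2754 and 2599 TPM in the day 5 SNE libraries, and its value was -1.06. EEF2 was at -1.03 and RPLP0, of the ribosomal stalk, at -1.11.

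LIN28A stood at 1488 and 1227 TPM in the day 5 PE libraries, against 374 and 342 TPM in the day 5 SNE libraries, and its value was -1.52. POU5F1 stood at 22.3 and 22 TPM in the day 5 PE libraries, against 4.26 and 4.65 TPM in the day 5 SNE libraries, and its value was -1.91. NORAD was at -1.01. MT-TG, at 0 in day 3 PE and at 158 and 248 TPM in the day 5 PE libraries, against 105 and 214 TPM in the day 5 SNE libraries, was at -9.09, which is no bound, and the mitochondrial-encoded MT-ND4, MT-ND2 and MT-ND3 were at -1.28, -1.07 and -1.05. On 1 kb a read was worth 6.60 and 7.25 TPM in day 3 PE, against 5.37 and 3.37 TPM in day 5 PE, and the part of depth in these differences was not tested.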

How the results depend on the processing

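Against 1262 higher and 1571 lower calls, removal of the GC trend gave 403 and 1008, a mean of 20 TPM 813 and 1011, a mean worth 10 estimated PE reads 741 and 988 (fewer genes tested in both filters) and a pseudocount of 10 gave 833 and 667. A common median gave 770 lower calls and quantile normalisation 929. Leaving out 1 library gave 821 to 1289 higher and 611 to 2097 lower calls, on 1 residual degree of freedom, with the lone library assumed to vary like the pair. For day 3 against day 5, removal of the GC trend left 177 higher calls, a common median gave 264 and 380, and leaving out 1 library gave 180 to 355 higher and 53 to 218 lower. For day 3 against day 0, a common median gave 558 and 1131, a pseudocount of 10 gave 2887 higher, and leaving out 1 library gave 4568 to 5331 and 94 to 145. For changes beyond fewer genes or libraries the cause was not tested.

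Of 190 named genes, removal of the GC trend changed the sign of PLEC (-0.32), FLNA (-1.09), FLNC (-1.10), AGRN (-0.38), LAMA5 (-0.10), COL18A1 (-0.10), RPL36 (-0.17), SNHG7 (-0.51), TRIM28 (-1.28) and JUND (-0.48), each called under one of the settings, and of 10 others called under neither, and 47 lost their call. A common median ended 19 calls and a pseudocount of 10 ended 21. Leaving out SNE replicate 1 or 2 ended 35 or 34 calls. With totals without mitochondrial-encoded genes, shares in PE and SNE were 67.2% and 80.0% for protein-coding RNA, 7.07% and 10.9% for lncRNA, 2.55% and 0.0296% for 45S genes, 3.30% and 0.405% for snoRNA and 5.18% and 1.09% for misc_RNA, and in SNE 0.435% for snRNA and 0.879% for microRNA genes.

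The labels do not say whether same-numbered PE and SNE libraries came from the same cells. Their deviations on day 3 correlated at r = 0.0217 across 13203 genes. That value cannot settle it, because counting error in the shallow PE libraries could hide a shared part. With the replicate number as a block, 1232 genes were called higher and 1526 lower. For day 3 against day 5 the block gave 87 and 32.

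Depth limits the short genes. In PE 193 tested genes were at 0 in both libraries, and nearly all lower calls of snRNA and microRNA genes are among them. Genes near the filter numbered 337 from 5 to 5.5 TPM and 362 from 4.5 to 5 TPM.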
